A study of Mus musculus with 4 samples.

Results

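The genes described here were the cytosolic ribosomal protein genes of eGFP-sorted cells, taken from the stromal vascular fraction of inguinal white fat of ChAT reporter mice and measured by droplet single-cell RNA-sequencing. They were chosen by symbol alone: Rpl or Rps followed by a digit, plus Rpsa, Rplp0, Rplp1 and Rplp2, with 9 symbols that carry -ps and 10 Rps6k symbols (kinases of the ribosomal protein S6) left out. The rule took 86 of the 31053 listed genes, 34 with small subunit (Rps) and 52 with large subunit (Rpl) symbols. Rps19bp1, which the rule also takes, encodes a binding partner of a ribosomal protein and not a subunit. The mice carried the ChATBAC-eGFP transgene, in which eGFP is driven from regulatory sequence of Chat, the gene of the acetylcholine-synthesizing enzyme. They were male, were 5 weeks old when housing at thermoneutrality (30 °C) began, and spent 3 weeks there. One group then stayed at 30 °C for 4 h (30C, 2 libraries) and the other was moved to 4 °C for 4 h (4C, 2 libraries) after a period at room temperature. Each library came from 4 pooled mice, and cells were sorted for eGFP, so the values describe eGFP+ cells of pooled animals and not the tissue as a whole. Fewer cells of a type and less RNA per cell cannot be told apart in summed libraries, so levels are given in CPM, the UMIs (unique molecular identifiers) of a gene scaled to a total of 1000000 for each cell type.

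Ribosomal proteins assemble with ribosomal RNA into the small subunit, which reads the mRNA, and the large subunit, which joins amino acids. Their mRNAs are among the most abundant of a cell, and most begin with a run of pyrimidines, the 5′ terminal oligopyrimidine (TOP) motif. The growth-regulating kinase complex mTORC1 acts through this motif and its binding protein Larp1 on how strongly, and for how long, these mRNAs are translated and kept. Resting lymphocytes devote a large share of a small mRNA pool to them, whereas secretory cells devote much of theirs to the secreted product.

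The files held 6883 and 6881 barcodes at 30C and 6272 and 6618 at 4C, of which 5191, 5388, 5329 and 5345 were kept after filtering, with a median of 7520 to 8068 UMIs per cell. Pairs of libraries shared 10 to 18 barcodes, and 5 to 14 among the cells kept. Marker genes placed 85.4% to 89.7% of cells kept in a cell type. Of the genes kept for a check of the gates, Lyz2 had a UMI in 99.1% of macrophages against 12.4% in the next gate, Txndc5 in 98.3% of plasma cells against 74.2%, and Bcl6 in 74.3% of germinal center B cells against 25.4%. Others were more frequent in another gate: Apoe was in 95.4% of macrophages and 99.0% of germinal center B cells, Basp1 in 94.1% of germinal center B cells and 96.9% of mature dendritic cells, and Blk in 65.0% of Ighd+ B cells and 91.0% of γδT cells. The gate built from type 2 innate lymphoid cell markers had Il7r in 99.0% of its cells, but Arg1 in 26.5%, Klrg1 in 7.62% (21.5% in proliferating T cells) and Hs3st1 in 0.200%, and is called ILC2-like. Of 3 mast cell markers, Cpa3 (0.0374 and 0.0744 CPM at 30C, 2.35 and 2.55 at 4C) and Mcpt4 (0.0562 and 0, then 6.41 and 5.93) were higher at 4C, whereas Kit was 3.63, 2.79, 3.55 and 3.87.

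Of the 86 genes, 85 or 86 had at least 1 UMI in each library. Rps24 (1884516 UMIs, 2.73% of those of all ribosomal protein genes), Rps29 (1850074, 2.68%) and Rps27 (1810512, 2.63%) were counted most often in the cells kept. The fewest UMIs came from the paralogues Rpl39l (608), Rpl3l (10) and Rpl10l (2), and the last of these, with Rpl3l, passed the filter on low counts in no comparison. Levels of different genes are compared here in UMIs from mRNA 3′ ends, which do not scale with transcript length but depend on how well each 3′ end is captured. Many ribosomal protein genes have near-identical processed pseudogenes, and Rps27 and Rps27rt share a stretch of 341 bases of the 345-base Rps27 transcript, so their counts are uncertain where reads could be split.

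Starts of 10 genes that the results turn on are printed below because the members are tied together by the oligopyrimidine start. Each line gives 10 bases before and 20 bases from the annotated start in RefSeq (GRCm38.p6), 5′ to 3′ on the sense strand, with the longest unbroken run of C and T in capitals. Rpl35, Rpl38, Rpl27 and Rps18 fell at 4C in several cell types, Rpl5 and Rpl7l1 in none, and Rps27 with Rps27l and Rpl22 with Rpl22l1 are paralogue pairs. The windows lie at chr2:39005112-39005141 (−) for Rpl35, chr11:114668570-114668599 (+) for Rpl38, chr11:101442235-101442264 (+) for Rpl27, chr17:33955646-33955675 (−) for Rps18 and chr5:107900518-107900547 (+) for Rpl5. The others lie at chr17:46782637-46782666 (−) for Rpl7l1, chr3:90213629-90213658 (−) for Rps27, chr9:66946076-66946105 (+) for Rps27l, chr4:152325716-152325745 (+) for Rpl22 and chr3:28805498-28805527 (+) for Rpl22l1.
Rpl35: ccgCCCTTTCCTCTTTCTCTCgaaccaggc
Rpl38: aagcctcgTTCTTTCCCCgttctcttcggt
Rpl27: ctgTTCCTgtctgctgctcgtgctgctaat
Rps18: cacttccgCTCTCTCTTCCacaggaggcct
Rpl5: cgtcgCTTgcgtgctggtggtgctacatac
Rpl7l1: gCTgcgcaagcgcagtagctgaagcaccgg
Rps27: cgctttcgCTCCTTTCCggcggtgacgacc
Rps27l: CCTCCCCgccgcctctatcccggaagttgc
Rpl22: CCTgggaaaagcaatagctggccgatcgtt
Rpl22l1: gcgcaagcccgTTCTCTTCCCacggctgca

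In these windows the run was 18 bases in Rpl35, 11 in Rps18, 10 in Rpl38 and in Rpl22l1, and 9 in Rps27, but 5 in Rpl27, 3 in Rpl5 and in Rpl22, and 2 in Rpl7l1. In the wider stretch of 50 bases searched next, Rpl5 and Rps27l each held a run of 9. The Rps27l run of 7 bases ended before the annotated start of transcription. The oligopyrimidine run was then searched on the sense strand, with no overlap with another motif, in the 50 bases from 20 before to 30 after the start of every promoter listed. A run of at least 8 bases was found in 31 of the 66 members with a promoter in the table (47.0%), in 5093 of 27025 promoters overall (18.8%), and in 15 of 69 mitochondrial ribosomal protein genes (21.7%). Members with no entry in the promoter table, and so not searched, included Rpl7, Rps20, Rpl21, Rpl32, Rplp1, Rpl29, Rps27a, Rpl23a, Rps29, Rpl30, Rpl8, Rpl3, Rpl36, Rps14 and Rpl17. A match describes letters only and is not a mapped start of the mRNA. For Rpl27, the printed window and the 50 bases searched both ended before the start of the gene in the GENCODE annotation (101442298).

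To see how much of each cell type's mRNA came from ribosomal protein genes, their share of all UMIs was taken per library. The share was highest in B cells, at 39.1% to 42.8% over the 4 libraries in Ighd+ B cells and 39.6% to 42.9% in B cells without Ighd, and the ranges of both overlapped. ILC2-like cells (30.9% to 33.9%), αβT cells (29.7% to 31.6%), germinal center B cells (28.6% to 31.1%), mature dendritic cells (26.0% to 29.4%) and proliferating T cells (25.1% to 27.7%) followed. Their ranges, which span both temperatures, overlapped between neighbors, but within each of the 4 libraries they stood in this order. Stromal cells (14.9% to 18.0%) and macrophages (14.7% to 16.5%) overlapped each other and lay below all lymphocyte gates but plasma cells. Plasma cells, which secrete antibody, were lowest at 9.30% to 13.1%, with immunoglobulin genes at 57.1% to 65.0% of their UMIs. With immunoglobulin genes left out of the total, the share in plasma cells was 30.3% and 30.5% at 30C and 28.4% and 26.6% at 4C. Depth differed between the gates, from a median of 5620.0 to 6447.5 UMIs per cell in αβT cells to 29710.5 to 31538 in plasma cells, and its part in the order of the shares was not tested. Within Ighd+ B cells of 1 library, the share and the UMIs of a cell, which have the UMIs of these genes in common, had a Spearman's rho of 0.282 to 0.397 over 1299 to 1766 cells.

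**Figure D1:**
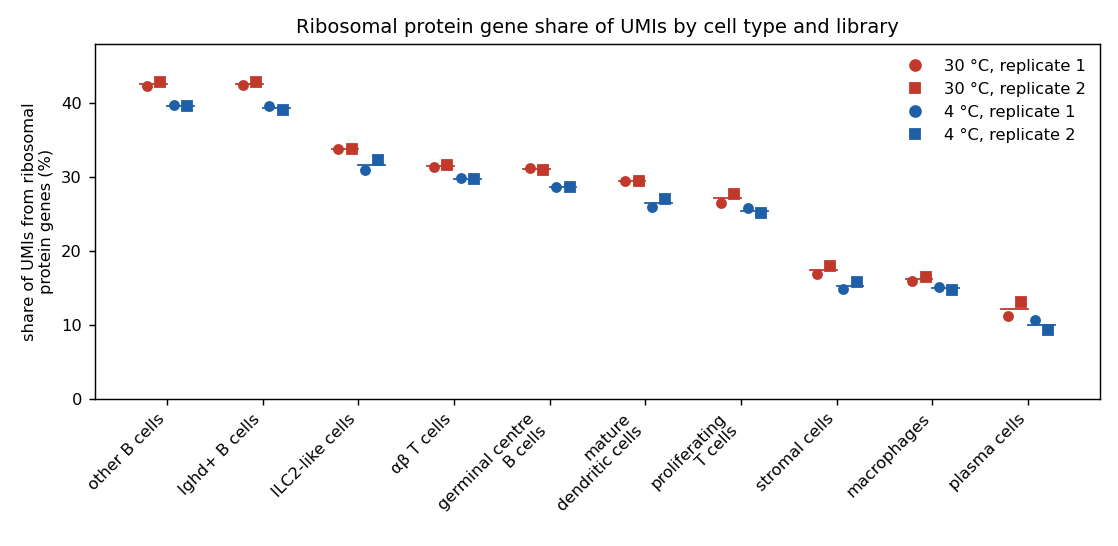
Share of all UMIs (%) from ribosomal protein genes in each cell type, 1 point per library, red for 30 °C and blue for 4 °C, with lines at the mean of 2 libraries. B cells sit near 40%, plasma cells at 9.30% to 13.1%, and both blue points lie below both red points in all 10 cell types.

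The genes of the ribosome were not used in equal proportion by each cell type. Rps29, a zinc-binding protein of the small subunit, made up 48.4, 52.6, 51.8 and 50.4 of every 1000 ribosomal protein UMIs in the 4 macrophage sums (30C, then 4C), against 26.7, 27.4, 25.0 and 26.4 in Ighd+ B cells. Rplp1, a protein of the acidic stalk that recruits translation factors, was at 31.8 to 33.4 per 1000 in macrophages and 18.8 to 19.2 in Ighd+ B cells. Rps7 went the other way, at 9.01 to 9.28 per 1000 in macrophages and 15.5 to 15.9 in Ighd+ B cells. Rpl41, the smallest ribosomal protein, was at 28.9 to 32.6 per 1000 in plasma cells and 17.5 to 18.4 in Ighd+ B cells. For none of these 4 genes did the ranges of the cell types compared overlap.

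The cell types were then compared within libraries by edgeR's quasi-likelihood test on summed UMIs, with trimmed mean (TMM) scaling, Benjamini-Hochberg adjustment over all genes and a threshold of 0.05. A log2 fold change here is a difference of scaled levels of 1 gene between 2 cell types. In macrophages, 82 of 84 members tested were lower than in Ighd+ B cells and 2 were higher, with a median log2 fold change of -1.96, against 36.0% of all genes lower and 36.0% higher. Rps7 (1472 and 1515 CPM at 30C, 1385 and 1324 at 4C in macrophages, against 6635, 6629, 6316 and 6157 in Ighd+ B cells) had the largest fall, -2.66, followed by Rps27 and Rps27rt (-2.46 each), Rps15a (-2.44) and Rps18 (-2.43). Rps29 was lower by less, at -0.93 ± 0.05 (SE, adjusted p = 9.0e-07). In αβT cells 82 members were lower than in Ighd+ B cells and 2 higher (median -0.77), where 35.0% of all genes were lower and 35.6% higher. The largest falls in αβT cells were those of Rps19 (-1.23), a gene mutated in Diamond-Blackfan anemia, Rps20 (-1.20), Rpl35 (-1.18), Rps12 (-1.10) and Rpl10a (-1.07). Rps19 was at 4235, 4133, 4018 and 3928 CPM in αβT cells and 7683, 7631, 7143 and 6912 in Ighd+ B cells.

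Germinal center B cells, which divide rapidly, had 79 of 83 members lower than Ighd+ B cells and 2 higher, with a median of -0.57 (32.8% of all genes lower, 31.2% higher). Rpl36 (-1.05), Rps27rt (-1.02), Rpl38 (-0.99), Rps21 (-0.99) and Rps12 (-0.98) were lowest. In plasma cells 78 of 83 members were lower than in Ighd+ B cells and 2 higher (median -0.68), where 26.2% of all genes were lower and 25.4% higher. Rps27rt (-1.58), Rps27 (-1.37), Rpl22l1 (-1.32), Rps19 (-1.18) and Rpl12 (-1.18) fell most. Scaling matters most here: by total UMIs, which the immunoglobulin genes dominate in plasma cells, the median of all genes was -1.27 and that of the members to -1.88. By total UMIs the median of all genes was 0.13 in germinal center B cells, 0.37 in αβT cells and 0.45 in macrophages, and the medians of the members were -0.38, -0.39 and -1.48.

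Proliferating T cells had 30 members higher and 29 lower than αβT cells, of 84, with a median of 0.01 (31.4% of all genes were higher and 31.8% lower). The rises included Rps2 (0.75), near the path of the mRNA into the small subunit, Rpl28 (0.52) and Rplp0 (0.50), the anchor of the acidic stalk, and the falls Rps27rt (-1.02), Rps27 (-0.91), Rps14 (-0.41), Rps15a (-0.39) and Rpl30 (-0.38). This split rests on the scaling: by total UMIs 12 members were higher and 55 lower, with the median of all genes at -0.24. Rps2 stood at 5039, 5508, 4542 and 4179 CPM in proliferating T cells and at 3221, 3319, 3306 and 3217 in αβT cells, apart in every library. ILC2-like cells had 70 of 84 members higher than αβT cells and 1 lower, Rpl24 (-0.10, adjusted p = 0.024), with a median of 0.22 (18.6% of all genes higher, 16.9% lower). The leading rises included Rpl10 (0.57), whose incorporation completes the large subunit, Rps20 (0.54), Rpl14 (0.46) and Rplp1 (0.44). By total UMIs 42 were higher and 8 lower than in αβT cells, and the median of all genes was -0.15. Rpl10 was at 3494, 3788, 3512 and 3624 CPM in ILC2-like cells and at 2576, 2709.7, 2580.1 and 2692 in αβT cells.

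A few paralogues ran against the rest. Rps27l, a paralogue of Rps27 that is induced by the tumor suppressor Trp53 and whose coding sequence is 76.2% identical to that of Rps27, was lowest in Ighd+ B cells, at 124 and 110.3 CPM at 30C and 149.7 and 129 at 4C. It stood at 298, 279, 316 and 289.8 in plasma cells and at 397, 438, 420.5 and 368 in proliferating T cells, while Rps27 went from 12481, 13062, 11322 and 11606 in Ighd+ B cells to 2171, 2389, 1917 and 1717 in plasma cells. Against Ighd+ B cells, the log2 fold change of Rps27l was 2.41 ± 0.08 (SE, adjusted p = 1.4e-10) in plasma cells, 1.04 ± 0.08 (5.7e-09) in germinal center B cells, 0.73 ± 0.07 (4.3e-05) in macrophages and 0.29 ± 0.05 (0.00021) in αβT cells. It was higher again in proliferating than in αβT cells (1.20 ± 0.10, 1.9e-06). By total UMIs the plasma cell value was 1.21, in the same direction.

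Rpl36al and Rpl36a encode nearly the same large subunit protein, with coding sequences 87.7% identical. In Ighd+ B cells Rpl36a (3202, 3167, 2888 and 2811 CPM) exceeded Rpl36al (776, 817, 798 and 797) in every library. In plasma cells the order was the opposite in every library, with Rpl36al at 1010.4, 952, 990.1 and 915 and Rpl36a at 756, 862, 710.2 and 566. Between plasma and Ighd+ B cells, Rpl36al was higher by 1.48 ± 0.08 (SE, adjusted p = 1.1e-08) and Rpl36a was lower (-0.87 ± 0.06, 2.1e-07) on the log2 scale, and by total UMIs the values were 0.28 and -2.07. In macrophages Rpl36al was lower than in Ighd+ B cells (-1.40, adjusted p = 2.0e-07), and in germinal center B cells it was at -0.01 (0.87), or higher by total UMIs (0.18, 0.0012). Rpl7l1, a paralogue of Rpl7, was higher in germinal center than in Ighd+ B cells (0.23 ± 0.08, adjusted p = 0.021) and lower in αβT cells, plasma cells and macrophages (-0.54, -0.54 and -0.62), the last with adjusted p = 0.25 by total UMIs. Rpl39l, a paralogue of Rpl39 best known from the testis, was higher in proliferating than in αβT cells (1.52 ± 0.33, adjusted p = 0.0024), but on 59, 5, 44 and 10 UMIs against 34, 6, 23 and 34. It was also above Ighd+ B cells in αβT cells (1.04, adjusted p = 0.021), but on these few UMIs and not in every library. In macrophages, too, it was above Ighd+ B cells (1.19, 0.047), but not without replicate 2 of 30C or either 4C library (adjusted p = 0.060 to 0.28).

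**Figure D2:**
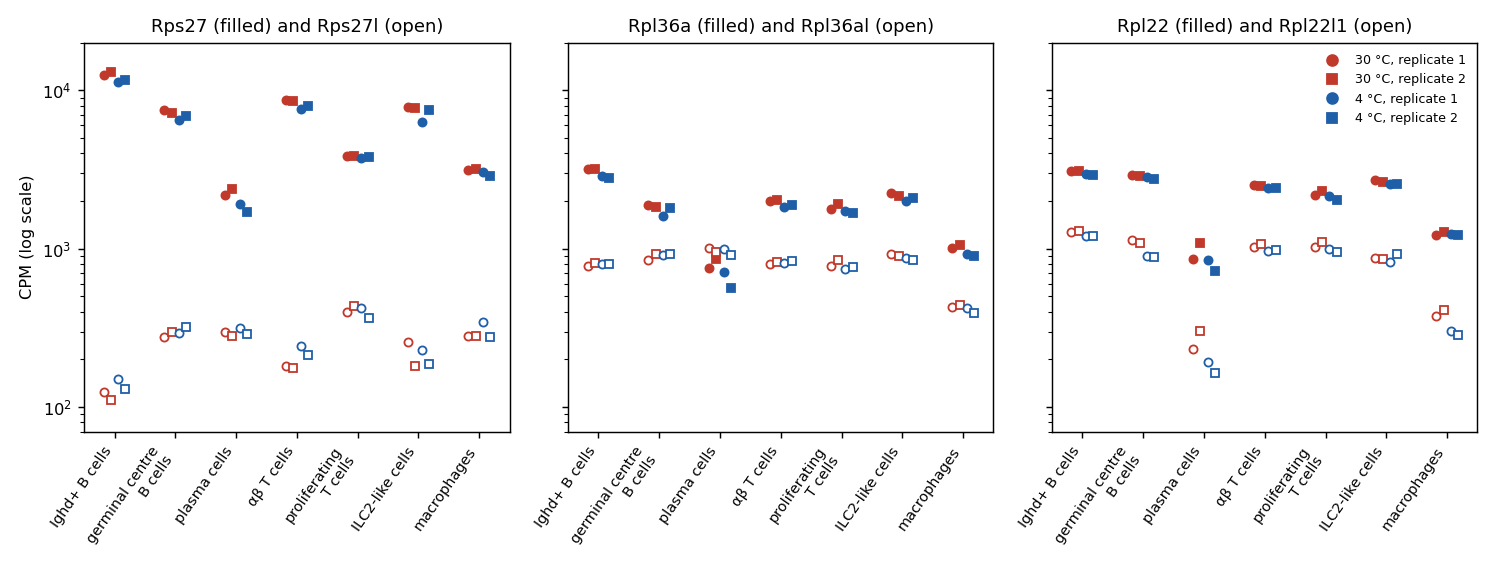
CPM (log scale) of 3 paralogue pairs in 7 cell types, 1 point per library, filled for the first gene of the pair and open for the second. Rpl36al lies above Rpl36a in plasma cells alone among these cell types, and Rps27l is lowest in Ighd+ B cells, where Rps27 is highest.

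The experiment set mice challenged at 4 °C against mice kept at 30 °C. As only the 4C mice were first held at room temperature, that step and the 4 h at 4 °C cannot be told apart. A gate can hold several subtypes, and a shift in their mix cannot be told apart from a change within cells. Among macrophages, the paper describes a cluster found only at thermoneutrality. The share of UMIs from ribosomal protein genes was lower in both 4C libraries than in both 30C libraries in 10 of the 10 cell types with at least 20 cells in every library. The cell types come from the same 4 libraries and are not 10 separate repeats, and 2 libraries against 2 cannot reach an exact two-sided p below 0.333. In Ighd+ B cells the share was 42.4% and 42.8% at 30C and 39.6% and 39.1% at 4C, a mean of 42.6% ± 0.263 (SD, n = 2) against 39.4% ± 0.371. In B cells without Ighd it was 42.3% and 42.9% against 39.7% and 39.6%, a difference of -2.93 percentage points. In mature dendritic cells it was 29.4% and 29.4% against 26.0% and 27.0% (-2.97 points). These 3 cell types had the largest differences in points, with -3.27 in Ighd+ B cells.

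Germinal center B cells had 31.1% and 31.0% at 30C and 28.6% and 28.7% at 4C (-2.41 points), and ILC2-like cells 33.9% and 33.8% against 30.9% and 32.3% (-2.23). αβT cells had 31.3% and 31.6% against 29.8% and 29.7% (-1.69). Macrophages had the smallest difference in points, from 15.9% and 16.5% to 15.1% and 14.7% (-1.27). Plasma cells went from 11.2% and 13.1% to 10.6% and 9.30% (-2.20), so that the 2 libraries of 1 temperature differed almost as much as the temperatures did. In proliferating T cells, at 26.5% and 27.7% against 25.8% and 25.1% (-1.70), the sign depended on the cell filter: without the upper limit of 5000 genes per cell the difference was 0.102. Stromal cells (16.9% and 18.0% against 14.9% and 15.7%) numbered 27 to 41 per library and had a median of 4202 and 3759.5 UMIs per cell at 30C against 11165 and 12352 at 4C. As a ratio, 4C stood between 0.819 of 30C in plasma cells and 0.946 in αβT cells. Macrophages (0.921) and Ighd+ B cells (0.923), at the ends of the order in points, were alike in ratio.

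Other measures moved with temperature beside the share, and their part in the result was not tested. The share of mitochondrially encoded UMIs was 5.68% and 5.55% at 30C and 5.25% and 5.28% at 4C in Ighd+ B cells, and its mean was lower at 4C in all 10 cell types, although the libraries overlapped in macrophages (3.38% and 3.51%, then 3.29% and 3.52%) and in stromal cells (2.85% and 2.57%, then 2.61% and 2.19%). Gm42418, a transcript that overlaps ribosomal RNA, was at 0.166% and 0.160% at 30C and 0.206% and 0.189% at 4C in Ighd+ B cells. Per Ighd+ B cell, ribosomal protein UMIs averaged 3870.4 at 30C and 3633 at 4C, while all other UMIs averaged 5209.8 and 5597. In αβT cells both means were higher at 4C, at 2140.4 and then 2249.9, and at 4668 and then 5311. In macrophages both were lower, at 1649 and then 1371, and at 8541 and then 7828. Among cells with 5000 to 10000 UMIs, a window added after the data were seen, 5 cell types had enough cells and the 4C libraries lay below the 30C libraries in 5. There Ighd+ B cells had 42.4%, 43.0%, 38.8% and 38.2%, and αβT cells 30.9%, 31.7%, 29.0% and 28.8%.

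Gene by gene, the change was broad and small in Ighd+ B cells. Of 84 members tested, 74 were lower at 4C and 0 higher, with a median log2 fold change of -0.20, whereas 7.38% of all genes tested were lower and 6.83% higher, with a median of -0.01. Both subunits took part, with 44 of 50 large subunit and 30 of 34 small subunit symbols lower and medians of -0.20 in each. Rpl35, which sits beside the exit of the nascent chain, went from 5390.1 and 5561 to 4739 and 4704 CPM. Both 4C libraries were below both 30C libraries, and the change was -0.31 ± 0.03 (SE, adjusted p = 5.2e-06). Rpl39, which lines the exit tunnel, went from 10053 and 10278 to 8788 and 8869 (-0.30 ± 0.03, adjusted p = 2.4e-06). Rpl38 went from 5801 and 5970.3 to 5070.2 and 5191 (-0.29 ± 0.03), Rps28 from 4244 and 4382 to 3629 and 3838 (-0.31 ± 0.04), and Rps29 from 11339.7 and 11729.6 to 9914 and 10312 (-0.29 ± 0.03), with adjusted p of 7.6e-06, 1.6e-05 and 6.0e-06. These 5 were the largest falls among the members called, and in none of them did the groups overlap. Without replicate 2 of 30C the count was 42. By total UMIs it was 57 lower and 2 higher, with the median of all genes at 0.09 and of the members at -0.10.

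Rpl5, which carries a small ribosomal RNA into the large subunit and can hold the Trp53 regulator Mdm2, was among the few not called in Ighd+ B cells, at 1887 and 1984 CPM at 30C and 1886 and 1945 at 4C (-0.11 ± 0.04, adjusted p = 0.071). Its libraries overlapped. Rpl36al was at -0.09 ± 0.04 (0.18), Rps27rt at 0.04 ± 0.05 (0.66), Rps19bp1 at 0.04 ± 0.10 (0.85), Rps27l at 0.15 ± 0.07 (0.19) and Rpl7l1 at 0.16 ± 0.07 (0.13). By total UMIs Rps27l (0.25, adjusted p = 0.023) and Rpl7l1 (0.26, 0.013) passed as higher, and Rpl36al was at 0.0027 (0.98). Rpl36a, in contrast, was lower (-0.26 ± 0.04, adjusted p = 7.6e-05), as was Rps27 (-0.25 ± 0.03, 2.5e-05). Whether the members of a pair differed in their change was not tested.

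**Figure D3:**
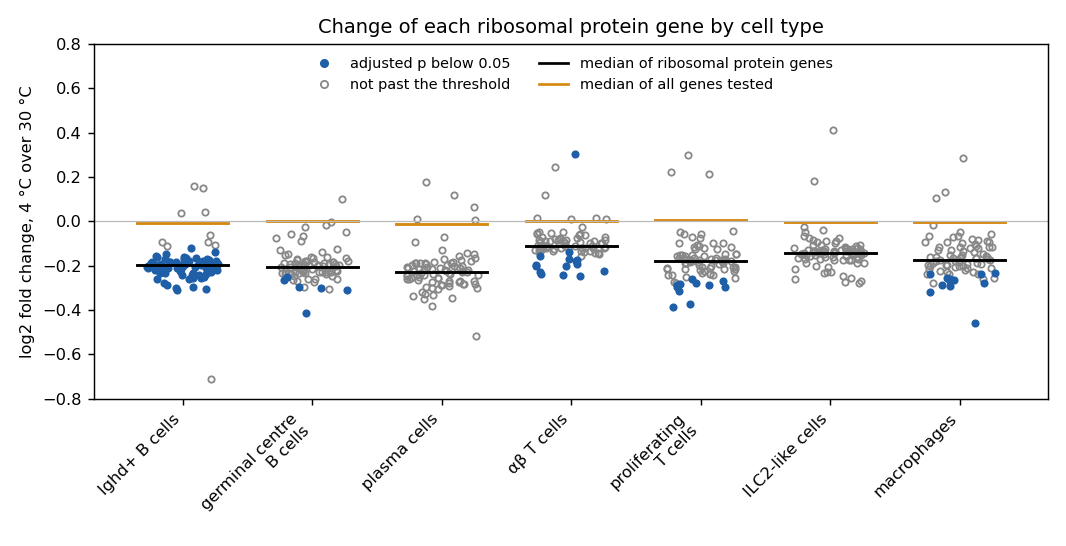
Log2 fold change, 4 °C over 30 °C, of each ribosomal protein gene tested (points) in 7 cell types, filled where the adjusted p was below 0.05, with the median of these genes in black and of all genes tested in orange. The black lines lie between -0.23 in plasma cells and -0.11 in αβT cells, and the filled points are 74 in Ighd+ B cells and 0 in plasma cells and in ILC2-like cells.

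In αβT cells 14 of 84 members were lower and 1 higher, with a median of -0.11 (3.51% of all genes lower, 2.82% higher). The falls were led by Rpl38 (-0.25, adjusted p = 0.0033), Rpl35 (-0.24, 0.0050), Rpl39 (-0.24, 0.0028), Rps28 (-0.23, 0.016) and Rps29 (-0.23, 0.0073). Rpl35 was at 3070.1 and 3181 CPM at 30C and 2711 and 2745 at 4C. The member that rose was Rps27l, at 182 and 177 against 244 and 214, a change of 0.30 ± 0.07 (SE, adjusted p = 0.031), with no overlap of the groups. The count for αβT cells hung on single libraries: it was 0 without either 30C library, 51 without replicate 1 and 27 without replicate 2 of 4C. The Rps27l rise missed the threshold without replicate 1 of 30C (adjusted p = 0.11), replicate 2 of 30C (0.12) or replicate 1 of 4C (0.075).

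In germinal center B cells 6 of 83 members were lower and 0 higher (median -0.20, with 1.03% of all genes lower and 0.317% higher), and 69 had an unadjusted p below 0.05. Rpl22l1, the paralogue of Rpl22 in the large subunit, had the largest fall, from 1139 and 1088 to 895 and 886 CPM (-0.41 ± 0.08, adjusted p = 0.018). Rps28 (-0.31), Rps18 (-0.30), Rpl35 (-0.30) and Rpl41 (-0.27) came next. DESeq2 called 1 member, and the count was 20 without replicate 1 of 30C, 0 without replicate 2 of either temperature and 1 without replicate 1 of 4C. In proliferating T cells 11 of 84 were lower and 0 higher (median -0.18, with 3.80% of all genes lower and 3.18% higher). They were led by Rpl41, from 7243 and 7965 to 6318 and 6136 (-0.39 ± 0.07, adjusted p = 0.0073), and Rps2, from 5039 and 5508 to 4542 and 4179 (-0.37 ± 0.08, 0.014). Neither gene's groups overlapped. Of 59 other nuclear genes as abundant as most members, 78.0% lay below 0 in proliferating T cells (median -0.13). The 11 of these with transcripts under 700 bases had a median of -0.21. Whether the members fell by more than such genes was not tested. By total UMIs 5 members were lower and 1 higher, with the median of all genes at 0.10. The count was 18 by DESeq2, 6 without replicate 1 of 30C, and 0 without replicate 2 of 30C or without either 4C library.

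In plasma cells 0 of 83 members passed in edgeR and 0 in DESeq2 (0.378% of all genes were called), 5 had an unadjusted p below 0.05, and the median was -0.23. In ILC2-like cells, too, 0 of 83 passed in both (1.87% of all genes were called), 30 had an unadjusted p below 0.05, and the median was -0.14. Leaving out a 4C library of ILC2-like cells gave 12 (without replicate 1) or 36 (without replicate 2). A missed threshold does not show that these cell types did not change, and members lay below 0 in 94.0% and 97.6% of cases.

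In macrophages 12 of 83 members were lower and 0 higher (median -0.18). As 8.30% of all genes tested in macrophages were lower, 8.72% higher and 17.0% changed in either direction, the count was not far from that of genes at large, while the median of all genes was near 0.00. The count was 1 without replicate 2 of 30C, 7 without replicate 2 of 4C, and 2 by DESeq2. Of the large subunit symbols 10 of 49 were lower and of the small subunit symbols 2 of 34. Rpl22l1 was at 378 and 407 CPM at 30C and 304 and 286 at 4C (-0.46 ± 0.09, adjusted p = 0.0066), while Rpl22 was at 1222 and 1271 against 1245 and 1213 (-0.07, 0.60). The Rpl22l1 groups lay apart and the Rpl22 groups overlapped. Rpl27 went from 944 and 970.3 to 801 and 784 (-0.32, adjusted p = 0.019), followed by Rpl36 (-0.29, 0.032), Rpl35 (-0.29, 0.029) and Rpl38 (-0.28, 0.023). Rps29, prominent in macrophages, was at 7680.3 and 8695 against 7833 and 7404, with the groups overlapping (-0.15 ± 0.08, 0.21).

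Over the 7 cell types, which share libraries, Rpl35 was lower in 5, Rps28, Rpl36, Rpl38 and Rpl41 in 4, and Rplp0, Rps29, Rpl39, Rps21, Rpl22l1, Rpl27, Rps18 and Rpl10 in 3. A further 11 members were lower in 2 cell types and 50 in 1. These 50 were called in Ighd+ B cells alone, where 74 members were lower. Of all genes, 1.03% to 8.30% were lower in the 5 cell types with members called. In each of the 7, 91.7% to 98.8% of the members tested lay below 0, so the tally does not show how widely a gene changed. Rps27l alone was higher in 1 cell type, and 9 members passed in none: Rpl7a, Rps15, Rpl36al, Rpl5, Rpl23a, Rpl39l, Rps19bp1, Rps27rt and Rpl7l1. This tally rests on the scaling: by total UMIs Rpl7l1 was higher in Ighd+ B cells (0.26, adjusted p = 0.013) and αβT cells (0.29, 0.042), and Rps27l in Ighd+ B cells too (0.25, 0.023). Rpl22l1 was also lower in Ighd+ B cells (-0.19, adjusted p = 0.0027), and its values were -0.52 (0.29) in plasma cells, -0.24 (0.094) in proliferating T cells, -0.15 (0.084) in αβT cells and -0.05 (0.91) in ILC2-like cells. Rps27rt had values above 0 in 7 of 7 cell types (0.01 to 0.22, none past the threshold) and Rps27 below 0 in 7 of 7. Because their transcripts are nearly identical, the counting could have split reads of the pair.

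Whether the change from 30C to 4C differed between cell types was tested by the interaction of cell type and temperature. For macrophages against Ighd+ B cells, 0 of 84 members differed in edgeR (6 at an unadjusted p below 0.05), where 8.22% of all genes did, and for macrophages against αβT cells 0 (1 at an unadjusted p below 0.05), where 7.29% did. DESeq2 was not run on these. For αβT cells against Ighd+ B cells 10 members differed, all with a less negative change in αβT cells, where 1.32% of all genes had a higher change and 1.17% a lower one. The leading gene was Rplp0, which went from 5576 and 5412 to 5125 and 4789.6 CPM in Ighd+ B cells and from 4457 and 4317 to 4422 and 4159.5 in αβT cells. Its changes were -0.25 and -0.08, a difference of 0.17 ± 0.03 (SE, adjusted p = 0.0033). Rps2 (-0.20 and -0.05, difference 0.15, adjusted p = 0.011) followed. By total UMIs 1 member differed, and leaving out 1 library gave 1 (without replicate 1 of 4C) to 9, with 2 without replicate 2 of 30C and 3 without replicate 2 of 4C.

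Other genes of the ribosome and of translation were read from lists. Fau, a small subunit protein fused to a ubiquitin-like protein, and Rack1, a scaffold on the small subunit, have symbols that the rule does not take. Both were lower in Ighd+ B cells, Fau by -0.20 ± 0.03 (SE, adjusted p = 0.00046) and Rack1 by -0.15 ± 0.04 (0.0073), while in αβT cells they were at -0.13 (0.067) and -0.07 (0.38) and in macrophages at -0.17 (0.15) and -0.08 (0.59). Of 19 TOP mRNAs that encode other proteins, Rack1 among them, 12 were lower in Ighd+ B cells and 0 higher (median -0.16). Of all genes, 7.38% were lower and 6.83% higher there. Examples were the elongation factor genes Eef1a1 (-0.20, adjusted p = 0.00032) and Eef1b2 (-0.21, 0.0011), Hnrnpa1 (-0.27, 0.00044) and Npm1 (-0.18, 0.0066). In αβT cells 0 of the 19 passed (median -0.07, with 3.51% of all genes lower and 2.82% higher). In macrophages 3 were lower, Hnrnpa1 (-0.42), Npm1 (-0.28) and Tpt1 (-0.23), where 8.30% of all genes were lower.

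Of 24 initiation factors, which bring the mRNA to the small subunit, 3 were higher and 1 lower in Ighd+ B cells (median 0.08, where 6.83% of all genes were higher and 7.38% lower), and 4 higher and 0 lower in αβT cells (0.08, where 2.82% were higher and 3.51% lower). Their medians were -0.01 in germinal center B cells, -0.04 in proliferating T cells and -0.02 in ILC2-like cells, with 0 called in each. Eif2s1, a subunit of the factor that delivers the initiator tRNA, was higher in both (0.35 and 0.34, adjusted p = 0.0016 and 0.014), as was the helicase gene Eif4a1 (0.19 and 0.26, 0.031 and 0.015). In macrophages 0 were higher and 2 lower, Eif5 (-0.52) and Eif3c (-0.40), where 8.72% of all genes were higher and 8.30% lower. Of 50 genes of ribosome assembly and ribosomal RNA synthesis, 3 were higher and 2 lower in Ighd+ B cells, with Bysl, needed for the small subunit, at 0.65 (adjusted p = 0.012) and Wdr12, needed for the large subunit, at -0.38 (0.0048). In macrophages 0 were higher and 6 lower (median -0.21, with 8.30% of all genes lower): Wdr12 (-1.94), the RNA polymerase I subunit gene Polr1a (-1.49), Taf1d (-0.92), Wdr43 (-0.66), Fbl (-0.64) and Sbds (-0.57). Fbl, the methyltransferase of ribosomal RNA, was at 119 and 115 CPM at 30C and 79.7 and 75.1 at 4C in macrophages, and at 124, 119.7, 130.2 and 129.5 in Ighd+ B cells. The change differed between macrophages and Ighd+ B cells for 6 of the 50 and between macrophages and αβT cells for 5, all lower in macrophages. Of all genes tested, 478 of 12061 and 414 of 12190 had a lower change in macrophages. In either direction 8.22% and 7.29% differed.

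The list of mTORC1 regulators held large single changes. Ddit4, an inhibitor of mTORC1, was at 365 and 328 CPM in macrophages at 30C and at 3.23 and 1.86 at 4C, on 13 and 3 UMIs. It was lower in macrophages (-6.96 ± 0.18, adjusted p = 2.7e-08), Ighd+ B cells (-1.74 ± 0.12, 1.8e-08) and αβT cells (-1.30 ± 0.08, 2.2e-06). Sesn1, which also restrains mTORC1, went from 134 and 134 to 31.4 and 36.2 in Ighd+ B cells (-2.08 ± 0.07, adjusted p = 1.6e-12) and from 53.1 and 55.9 to 36.0 and 31.5 in αβT cells (-0.74 ± 0.09, 0.00076). In macrophages Sesn1 overlapped between the temperatures (124 and 152 against 140.3 and 124), and Sesn2 was lower (-2.32). Myc, a driver of ribosome production, was higher in Ighd+ B cells (0.44 ± 0.08, adjusted p = 0.00066). Of the 19 listed genes tested in Ighd+ B cells, 2 were higher and 4 lower. Of the 78 nuclear genes for mitochondrial ribosomal proteins, 3 were higher and 3 lower in Ighd+ B cells, with a median of 0.00. Of 13 mitochondrially encoded genes 12 were lower there (median -0.20). Beside these counts, 6.83% of all genes were higher and 7.38% lower in Ighd+ B cells. In αβT cells 10 of the 13 mitochondrially encoded genes were lower (median -0.20, with 3.51% of all genes lower). In proliferating T cells 6 were lower (median -0.28, with 3.80% of all genes lower).

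**Figure D4:**
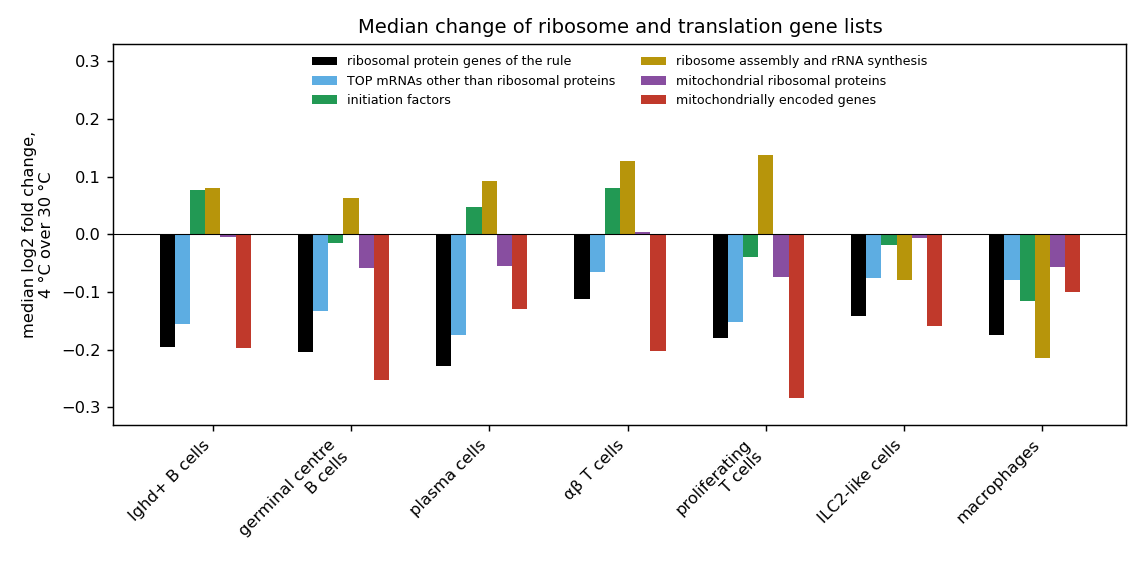
Median log2 fold change, 4 °C over 30 °C, of 6 gene lists in 7 cell types, as bars from 0. Bars of the ribosomal protein genes, of the other TOP mRNAs and of the mitochondrially encoded genes point down in each cell type. Those of ribosome assembly point up in Ighd+ B cells (0.08), germinal center B cells (0.06), plasma cells (0.09), αβT cells (0.13) and proliferating T cells (0.14). They point down in ILC2-like cells (-0.08) and macrophages (-0.21).

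Among the members, the change followed annotated transcript length weakly, with shorter transcripts falling more except in macrophages. The length is that of 1 annotated transcript per gene, such as 5179 bases for Rps15a and 3706 for Rps20. It need not be the transcript counted. Spearman's rho of the log2 fold change with this length was 0.32 over 84 members in Ighd+ B cells and 0.29 over 84 in αβT cells. It was 0.25 in germinal center B cells and in proliferating T cells, and 0.44 over 83 in ILC2-like cells. In plasma cells it was 0.19 over 83, and in macrophages 0.01. The points of 1 cell type share its 4 libraries. In Ighd+ B cells, the 26 members with transcripts under 700 bases had a median of -0.22 and the 30 of at least 1000 bases a median of -0.19. Of the other genes, 222 short ones had a median of -0.02 and the long ones a median of 0.00. Other nuclear genes as abundant as most members had medians of -0.03 in Ighd+ B cells (36 genes), -0.09 in germinal center B cells (42) and -0.13 in proliferating T cells (59). Below 0 were 61.1%, 69.0% and 78.0% of them. Their medians were -0.003 in plasma cells (52), 0.04 in αβT cells (50), 0.02 in ILC2-like cells (43) and -0.02 in macrophages (118). The longest oligopyrimidine run near the start had a rho of -0.18 to -0.01 with the change over the 7 cell types. Rpl35 with its run of 18 bases and Rpl27 with 5 in the windows printed above both fell in macrophages. As the Rpl27 window ended before the start of the gene in GENCODE, its run cannot be set against that of Rpl35.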

How the data were processed

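Sorted ChAT-eGFP+ cells were measured with droplet 3′ gene expression libraries, 2 per temperature. The deposited files hold UMI counts per gene and cell barcode, which the authors made with Cell Ranger (3.1.0 per the submitters' notes, 3.0.0 in the matrix header and the methods), with no normalization. A cell was kept if it had over 200 but under 5000 detected genes and less than 7.5% of its UMIs from mitochondrial genes. No doublet caller was run, but cells with markers of more than 1 lineage entered no gate. A marker counted as positive at 2 UMIs. The markers were listed first, and how many a gate required was set after the files were seen: B cells 2 of 4 (split by Ighd), germinal center B cells 2 of 6, plasma cells 4 of 7, T cells 2 of 3, αβT cells 2 of 3, proliferating T cells 3 of 6, ILC2-like cells 3 of 7, macrophages 2 of 7, mature dendritic cells 3 of 5 and stromal cells 2 of 5. Gates with under 20 cells in a library (γδT and lymphatic endothelial cells) were left out. Raw counts were summed per library and gate, over 53423899 to 54933486 UMIs in the cells kept of each library. CPM are UMIs scaled to a gate total of 1000000.

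Tests used edgeR 4.0.16 (R 4.3.3; glmQLFit, glmQLFTest, TMM, filterByExpr, Benjamini-Hochberg over all genes, threshold 0.05). Temperature was fitted in each gate alone, gates were compared with library as a term, and differences in change by the interaction. Shares are descriptions and have no p. The step was tested on simulated data in which genes picked at random changed in both directions, and not on a shared shift of the members. Nothing in the labels says more of the replicates than separate pools of mice. The p-values of temperature within a gate measure the spread between 2 libraries per temperature. Those between gates and of the interaction measure the spread over libraries of differences between gates within a library. In all of them edgeR draws the spread of a gene toward that of other genes, so small p-values do not rest on its own libraries alone. The SE was derived from the log2 fold change and the F statistic of the test. Alternatives were DESeq2 1.42.0, other scalings, filters, gates and denominators, the replicate block, and leaving out each library. Transcript lengths are from GENCODE M21, and promoters from RefSeq. For each gene 1 protein-coding transcript was taken, the annotated principal one where tagged and otherwise the longest. The members and lists were chosen with earlier results of these data known. Named members were the up to 5 largest rises and falls past the threshold and alike in all library comparisons of each fit, paralogue pairs, symbols that are not subunits, the 3 most and 3 least counted, genes outside the rule (Fau, Rack1), and members called in most or no gates. Others named (Rps29 in macrophages, Rplp1, Rps7 and Rpl41 by proportion) were chosen after their values were seen. Some genes that this rule takes are not reported here.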

Additional observations from a re-analysis of the deposited data

Results flagged for a closer look

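For 10 members the change between 4C and 30C differed between αβT cells and Ighd+ B cells by the interaction test in edgeR (adjusted p below 0.05 over all genes). Among them, the log2 difference, αβT minus Ighd+ B cells, was 0.17 for Rplp0, 0.15 for Rps2, 0.14 for Rpl10, 0.13 for Rps27a and 0.13 for Rpsa. It was 0.12 for Rps18, 0.12 for Rps26, 0.12 for Rps12 and 0.11 for Rpl32. The adjusted p lay between 0.0033 for Rplp0 and 0.0498 for Rps26. By total UMIs 1 member differed. Groups of 2 libraries are too small for the search for a single library far from the others.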

How the results depend on the processing

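The share of UMIs was lower at 4C in 10 cell types under most settings, in 8 without the upper limit on genes per cell, in 9 with 1 more marker, in 8 by the median over cells, and in 5 of the 5 cell types with enough cells of 5000 to 10000 UMIs. Leaving out a library gave 10 to 10, and a median difference of -2.51 to -1.94 points (main value -2.22). In proliferating T cells the difference turned to 0.102 without the upper gene limit. Counts of members past the threshold moved as follows. In germinal center B cells (6), DESeq2 gave 1, total UMIs 0, no count filter 31, a mitochondrial limit of 15% 3, and leaving out immunoglobulin genes 23. In αβT cells (15), no filter gave 0. In proliferating T cells (11), DESeq2 gave 18, total UMIs 6, no filter 0 and no upper gene limit 2. In ILC2-like cells (0), no filter gave 8 and no upper gene limit 19. In macrophages (12), DESeq2 gave 2, total UMIs 5 and 1 more marker 1. The interaction of αβT and Ighd+ B cells (10) gave 1 by total UMIs and 4 with 1 more marker, and that of macrophages and Ighd+ B cells (0) gave 1 by total UMIs. The cause was not tested. Leaving out 1 library gave 42 to 77 in Ighd+ B cells, 0 to 20 in germinal center B cells, 0 to 51 in αβT cells, 0 to 6 in proliferating T cells, 0 to 36 in ILC2-like cells, 1 to 12 in macrophages, 0 in plasma cells, and 1 to 9 for the αβT interaction. Where a temperature was left with 1 library, it was assumed to vary like the other. Between cell types no count of members called in either direction moved by over 1.5 times, but by total UMIs the counts higher and lower went from 30 and 29 to 12 and 55 in proliferating T cells against αβT cells, and from 70 and 1 to 42 and 8 in ILC2-like cells against αβT cells. Of 1007 alternatives for the 92 values of named members past the threshold, 812 kept direction and side of the threshold, 195 kept direction only and 0 reversed. Values short of the threshold did turn by total UMIs, such as Rpl36al at 4C in Ighd+ B cells (-0.09 to 0.0027).

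With the replicate number as a block, the counts were 1 in germinal center B cells, 58 in αβT cells and 77 in Ighd+ B cells. The numbers do not pair the libraries: correlations of same-numbered deviations were -0.0664 to 0.0962. Each temperature had 2 libraries, and the rarest cell type 27 to 41 cells per library.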

Other observations

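γδT cells, left out because 1 library held 19 of them, had ribosomal protein shares of 29.7% and 30.1% at 30C and 27.7% and 27.2% at 4C.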
